A study of Mus musculus with 6 samples.

Results

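This account covers 34 genes of the interferon response in the mouse habenula, out of 55359 genes in the table. They were taken by name and hold the interferon receptors, the transcription factors that carry the signal, the RNA sensors that start it and a set of genes that interferon induces. All 34 names matched 1 row each. RNA was sequenced from the habenula, a small epithalamic region, of C57BL/6 mice aged 2 months. There were 3 wild-type (WT) libraries and 3 libraries labelled Tet2 cKO, a conditional knockout of Tet2, which encodes an enzyme that oxidises 5-methylcytosine. The sources used here give neither the line that drives the deletion nor the cells in which it acts. They do not state whether each library came from 1 animal, so a p-value here sets a difference against the spread of libraries, which may be technical.

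Type I interferons bind a receptor made of the Ifnar1 and Ifnar2 subunits, and interferon gamma binds one made of Ifngr1 and Ifngr2. Kinases of the Janus family then phosphorylate STAT proteins. A complex that holds Stat2 and Irf9 binds the interferon-stimulated response element (ISRE), while interferon gamma acts mainly through the gamma-activated site (GAS). Cells make interferon after sensors such as Ifih1 (MDA5) and Ddx58 (RIG-I) detect foreign RNA. In uninfected brain the induced genes are usually transcribed at a low basal level, and microglia, endothelium and astrocytes are among the cells that respond.

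Promoters of these genes are shown first because the ISRE is the sequence through which many of them are known to respond. RefSeq promoters (GRCm38.p6), each with 250 bases before the transcription start and 50 from it on, were matched by symbol for 29 members, 33 promoters in all. Dhx58, Usp18, Ifi27, Parp14 and Rtp4 had no match. For 23 of the 33 promoters the first 25 bases from the start on stood in a transcript of the same gene in the GENCODE M21 annotation. Positions below are counted from the RefSeq start. The ISRE was searched as GAAANNGAAA and the GAS as TTCNNNGAA on both strands, and overlapping matches of one motif were counted separately. The ISRE letters stood in a promoter of 14 of the 29 members, or 14 of 33 promoters (42.4%), against 3.44% of all 32851 promoters in the RefSeq set. The GAS letters stood in 9 of 33 member promoters (27.3%), against 8.30% of all promoters. A match is a description of the letters and not a bound site.

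The following stretches lie before the start of 7 members with a match, with 12 bases on either side, and capitals mark the ISRE matches. The last stretch is the 100 bases before the start of Xaf1, the member with the smallest p between the groups, which held no match.
Isg15, chr4:156200863-156200908, minus strand: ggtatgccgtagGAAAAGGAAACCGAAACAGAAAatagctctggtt
Ifit1, chr19:34640773-34640825, plus strand: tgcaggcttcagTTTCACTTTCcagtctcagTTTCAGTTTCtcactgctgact
Ifit3, chr19:34583361-34583428, plus strand: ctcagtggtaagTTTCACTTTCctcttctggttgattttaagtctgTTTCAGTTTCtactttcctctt
Rsad2, chr12:26456551-26456584, minus strand: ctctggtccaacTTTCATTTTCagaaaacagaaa
Bst2, chr8:71537575-71537614, minus strand: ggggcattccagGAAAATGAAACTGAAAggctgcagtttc
Ifitm2, chr7:140955986-140956019, minus strand: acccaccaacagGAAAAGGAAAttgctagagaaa
Gbp3, chr3:142559987-142560026, plus strand: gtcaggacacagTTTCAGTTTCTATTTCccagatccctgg
Xaf1, chr11:72301529-72301628, plus strand: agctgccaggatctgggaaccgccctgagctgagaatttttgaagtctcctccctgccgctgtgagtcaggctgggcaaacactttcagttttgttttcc

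The first base of the 3 overlapping matches of Isg15 stood at -78, -72 and -66 from the start, and those of Bst2 at -130 and -124. Ifit1 had separate matches at -104 and -85, and Ifit3 at -156 and -122. In Gbp2, Gbp3 and Gbp7, which lie near one another on chromosome 3, the first match stood at -59, -45 and -53. In GENCODE M21 the Gbp2 gene begins at 142620602, so its match lies just inside that annotated gene. Where the capitals read TTTC, the match lies on the strand opposite to the one printed. In Ifih1, Ddx58 and Ifitm3 the matches lay just after the start. The 4 receptor promoters held no ISRE match and had 14 to 31 CpG dinucleotides. The 14 members with an ISRE match had 1 to 22 (median 6), and the median over all promoters was 7. The presence of the letters did not sort the members by level. The 14 members with a match had mean levels from 0.330 to 15.2 FPKM (median 2.12) and the 15 without from 0.118 to 9.69 FPKM (median 3.41).

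**Figure D1:**
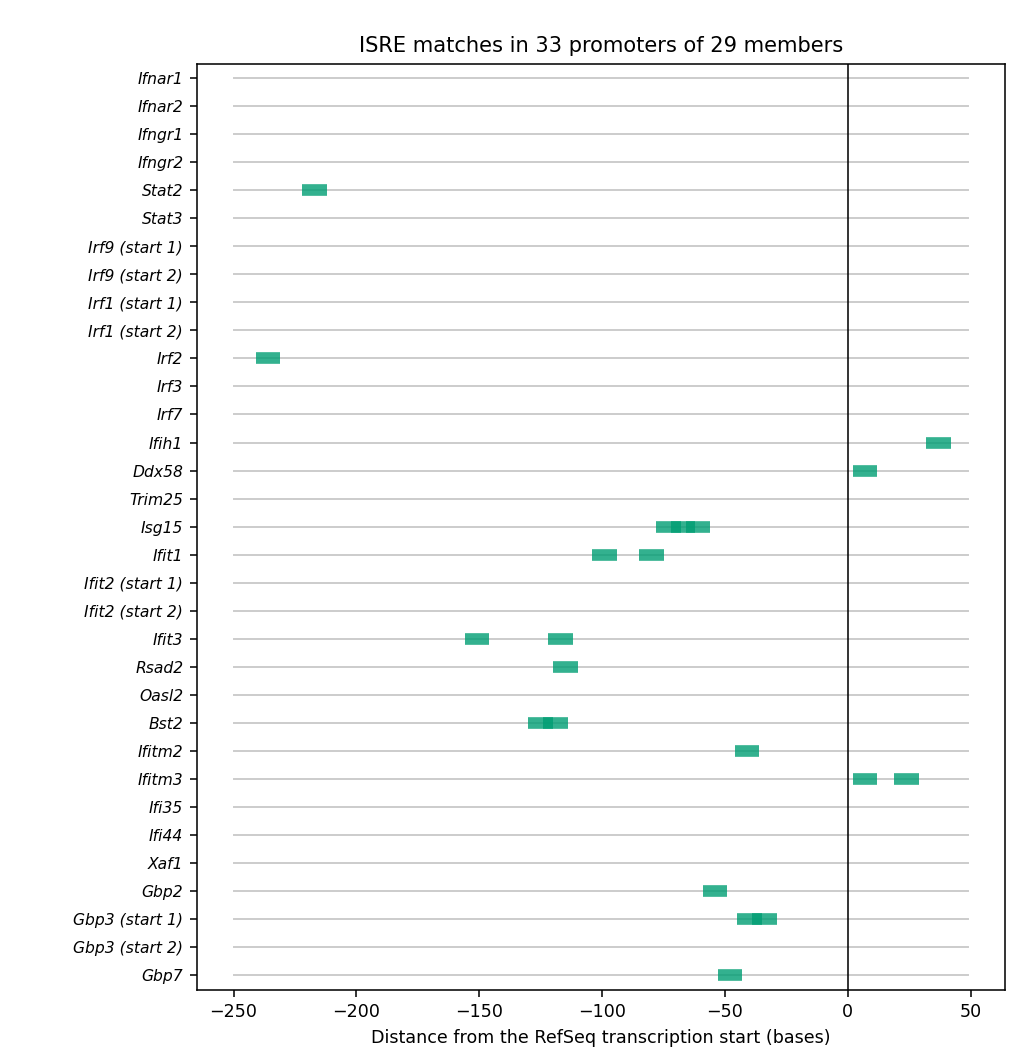
Position of ISRE matches (green bars, either strand) in the 33 RefSeq promoters of 29 members; the x axis gives the distance from the transcription start in bases and each grey line is 1 promoter. The first bases of the matches before the start lie between -241 and -39, and 3 members have theirs after it; 14 of 29 members have a match in at least 1 promoter.

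Levels are given in FPKM, the deposited count scaled by exonic gene size and by library total. Library totals lay between 16089676 and 17917987 counts. WT replicate 3 stood apart, holding the highest value of the 6 libraries in 27.1% of tested genes and the lowest in 27.3%, and it had the lowest mean log2(FPKM + 1) of 12 habenula neuron markers (4.54, against 4.74 to 5.12 in the others). The tissue label fits its markers, since the medial habenula genes Tac2 and Gpr151 stood at 30.8 to 57.9 and 37.5 to 81.0 FPKM. Tet2 itself stood at 3.54 ± 0.147 FPKM in the WT libraries, against 4.15 ± 0.279 FPKM in those labelled Tet2 cKO (SD, n = 3 each). Each library labelled Tet2 cKO thus held more Tet2 than each WT library, and every direction given here is that of the labels. Reads from exons that a deletion leaves in place are part of this total, and exons of Tet2 overlap Gm42567 on the opposite strand, so the value does not check the label. In bulk tissue, fewer cells of a type and less RNA per cell cannot be told apart.

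Interferon genes were transcribed at low to moderate levels in these habenulae. Over the 6 libraries 2 members averaged above 10 FPKM, 8 stood between 5 and 10, 15 between 1 and 5, and 9 below 1. The 4 receptors ranked from 4 to 12 among the 34 members, and Usp18, Rsad2 and Ifi44 had the lowest levels. Interferon-induced genes stood at both ends, since Ifitm3 and Ifi27 were the highest and Ifit2, Ifit3 and Isg15 ranked 9, 11 and 17. Genes averaging at least 1 FPKM were tested, 25 of the 34 members among 14539 genes.

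**Figure D2:**
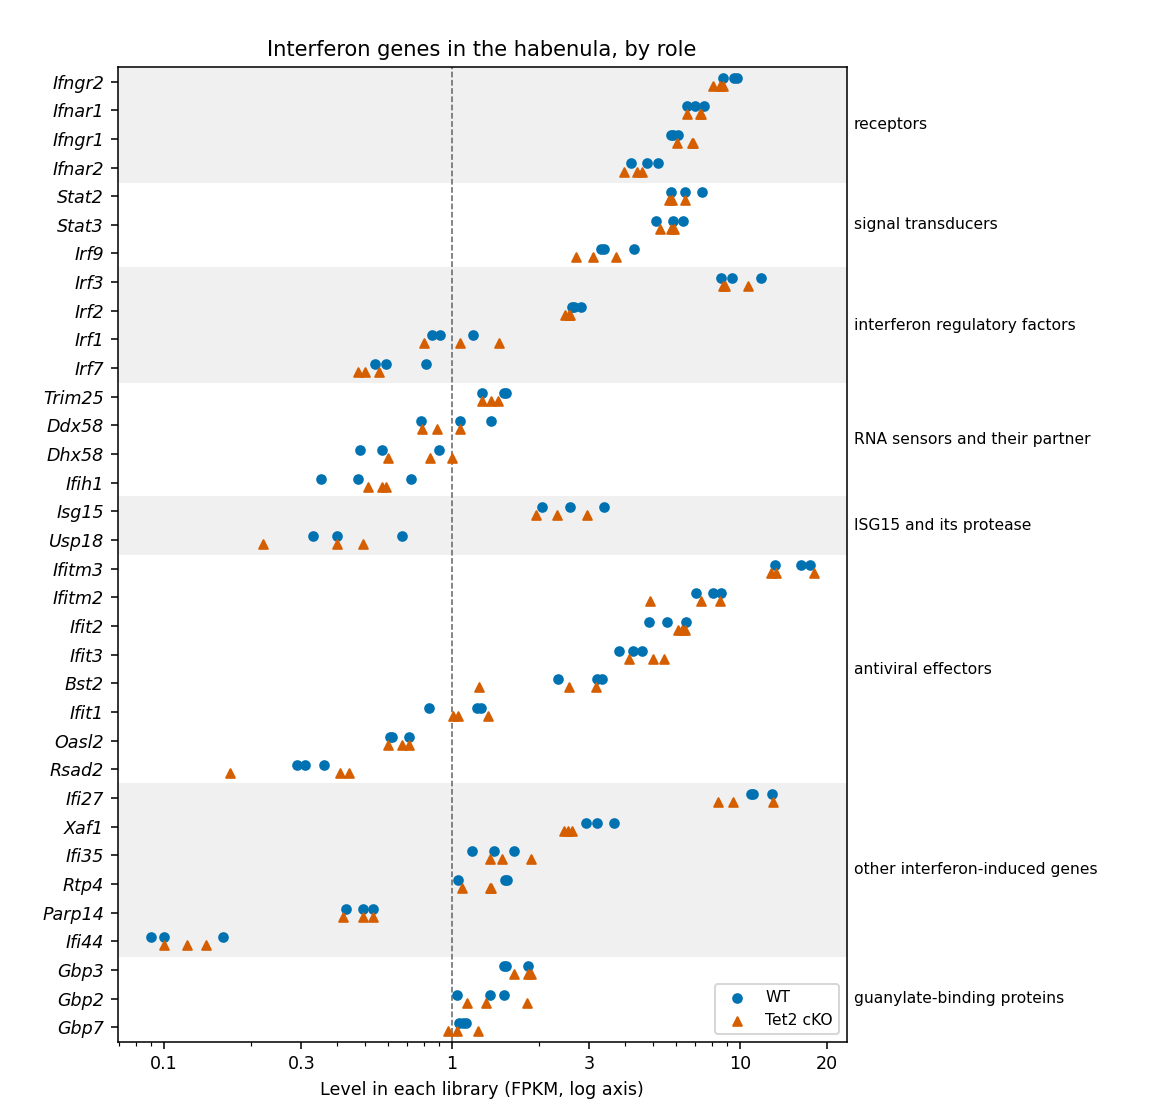
Level of each of the 34 members in each library, in FPKM on a log axis, grouped by role; blue circles are the 3 WT libraries, orange triangles the 3 libraries labelled Tet2 cKO, and the dashed line marks 1 FPKM, the mean needed for testing. Ifitm3 and Ifi27 lie at the top and Ifi44 at the bottom, and the symbols of both groups are intermixed for most genes.

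No member differed between the groups by the test across all genes. The edgeR quasi-likelihood test with Benjamini-Hochberg adjustment called 0 of 25 members and 0 of 14539 genes (0% of those tested) at an adjusted p under 0.05. DESeq2 called 4 genes, and edgeR called 1 gene when WT replicate 2 was left out and 3 genes when WT replicate 3 was, none of them a member. At an unadjusted p under 0.05 there was 1 member, Xaf1 (4.0% of 25, against 2.57% of all tested genes), and it was lower, as were 1.68% of all tested genes at that p. The groups did not overlap in 2 members, Xaf1 and Irf2 (8.0%, against 7.07% of all tested genes). Both shares were near the background. The number without overlap depends on how many libraries are compared. Dropping WT replicate 1, 2 or 3 gave 6, 7 or 3 members, and dropping Tet2 cKO replicate 1, 2 or 3 gave 5, 5 or 3. The share over all tested genes was not taken for these smaller sets, so 7.07% is no background for them. At an unadjusted p under 0.05 there were 2 members without WT replicate 1 (Ifit2 joined Xaf1) and 3 without Tet2 cKO replicate 1 (Irf9 and Ifi27 joined). Of the 14539 tested genes, 351 and 465 were under it in those settings.

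Small differences leaned downwards. The log2 difference was below 0 in 17 of 25 tested members (68.0%, against 50.9% of all tested genes), with a median of -0.10, against -0.0021 over all tested genes. The members share cells and transcription factors and are not independent, and no test of the list was made. The size of the lean rested on single libraries, with a median of -0.048 or -0.036 when WT replicate 1 or 3 was dropped and -0.034 or -0.051 when Tet2 cKO replicate 2 or 3 was. The 95% interval lay inside a 1.5-fold change in either direction for 17 of 25 members (68.0%, against 80.5% of all tested genes) and inside a 2-fold change for 24, Bst2 being the exception. Members were measured less precisely than most genes, with a median standard error of 0.154 against 0.111 over all tested genes.

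**Figure D3:**
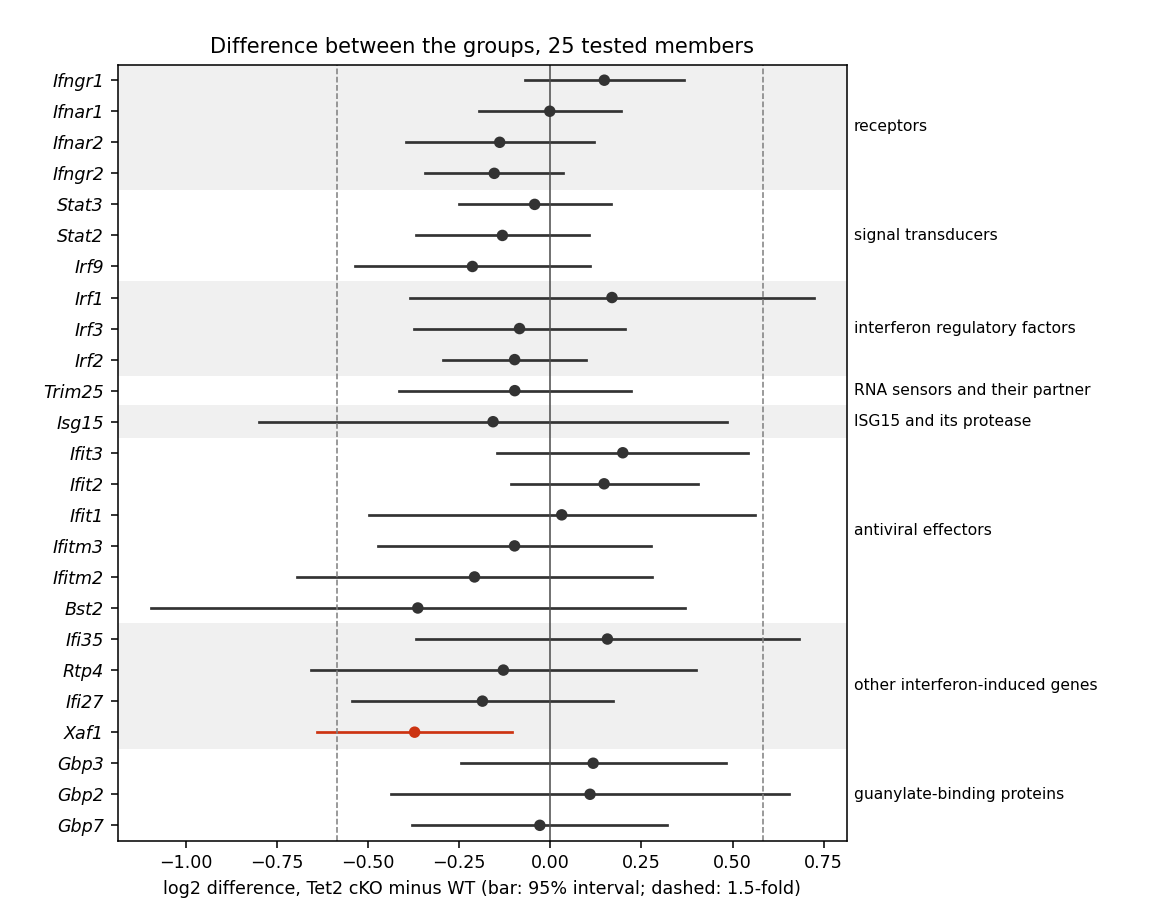
log2 difference (Tet2 cKO minus WT) of the 25 tested members with its 95% interval, grouped by role; dashed lines mark a 1.5-fold change, and Xaf1, the only member with an unadjusted p under 0.05, is in red. All intervals but that of Xaf1 cross 0, and that of Bst2 is the widest, from -1.10 to 0.37.

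The 4 receptor genes had small standard errors, and each interval lay inside a 1.5-fold change. Ifngr2, the signalling subunit of the interferon gamma receptor, stood at 8.70, 9.55 and 9.80 FPKM in the WT libraries, against 8.51, 8.76 and 8.09 FPKM in those labelled Tet2 cKO. The groups overlapped only where Tet2 cKO replicate 2 passed WT replicate 1, and the log2 difference was -0.15 (95% interval -0.34 to 0.04, unadjusted p = 0.101 by edgeR). Ifnar1, a subunit of the type I receptor, stood at 6.99, 7.53 and 6.55 FPKM in the WT libraries, against 6.57, 7.33 and 7.25 FPKM in those labelled Tet2 cKO. These ranges coincide, and the interval of the difference was -0.20 to 0.19. Ifngr1, the ligand-binding chain for interferon gamma, differed by 0.15 (SE 0.0978) and Ifnar2 by -0.14 (SE 0.115). The value of Ifnar2 was -0.22 or -0.070 when WT replicate 1 or 2 was left out, and -0.083 when Tet2 cKO replicate 2 was. Ifnar2, Il10rb, Ifnar1 and Ifngr2 follow one another on the plus strand of chromosome 16 within 91372783 to 91565623 on GRCm38. Exons of Ifnar2 and Il10rb overlap the predicted gene Gm21970 on the same strand.

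The 3 signal transducers were all nominally lower, and none passed. Stat2, which joins Irf9 in the ISRE-binding complex, stood at 6.44, 5.74 and 7.38 FPKM in the WT libraries, against 6.46, 5.69 and 5.82 FPKM in those labelled Tet2 cKO. Of the other group only the lowest value lay outside the WT range, and the log2 difference was -0.13 (SE 0.106), and dropping WT replicate 2 or 3 gave -0.22 or -0.023. Stat3, better known for signals of the interleukin-6 family, stood at 5.84, 6.35 and 5.13 FPKM in the WT libraries, against 5.28, 5.74 and 5.89 FPKM in those labelled Tet2 cKO. The highest and the lowest values were both in WT. Irf9, the DNA-binding partner of Stat2, had the larger difference, -0.21 (SE 0.144), which was -0.074 without WT replicate 3, -0.34 without Tet2 cKO replicate 1 and -0.11 without Tet2 cKO replicate 2. Exons of Stat3 overlap Stat5a on the opposite strand and those of Irf9 overlap Rnf31 on the same strand, so some of their reads may be shared.

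Among the interferon regulatory factors the levels were widely spaced. Irf3, the factor that sensors activate by phosphorylation of existing protein, was the most abundant at 8.62, 9.37 and 11.8 FPKM in the WT libraries, against 10.7, 8.76 and 8.87 FPKM in those labelled Tet2 cKO. Within each group 1 library was high, WT replicate 3 and Tet2 cKO replicate 1, and the groups overlapped. Irf2, which binds the same elements as Irf1 and often represses them, stood at 2.65, 2.80 and 2.62 FPKM in the WT libraries, against 2.55, 2.47 and 2.56 FPKM in those labelled Tet2 cKO. The groups did not overlap, yet the log2 difference was only -0.10 (SE 0.0882, unadjusted p = 0.293 by edgeR). Irf1, an early-induced activator, stood between 0.80 and 1.46 FPKM. Irf7, itself induced by interferon and the amplifier of the response, averaged 0.578 FPKM and had 35, 36 and 54 counts in the WT libraries, against 31, 38 and 34 in those labelled Tet2 cKO. Irf3 overlaps Bcl2l12, Irf1 overlaps Gm17334 and Irf7 overlaps Phrf1 on the opposite strand, and with no strand setting known their levels may hold reads of those neighbours.

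The cytoplasmic RNA sensors were rare transcripts. Ddx58, which encodes RIG-I, fell just under the filter at a mean of 0.995 FPKM, with 1.07, 1.37 and 0.780 FPKM in the WT libraries, against 1.07, 0.790 and 0.890 FPKM in those labelled Tet2 cKO. The WT libraries alone covered the other group. Ifih1 had 50 to 94 counts in the WT libraries, against 75 to 84 in those labelled Tet2 cKO, and Dhx58, which encodes the regulator LGP2, had 27 to 52 and 35 to 57. Trim25, the ubiquitin ligase associated with RIG-I, stood at 1.54, 1.27 and 1.52 FPKM in the WT libraries, against 1.37, 1.44 and 1.27 FPKM in those labelled Tet2 cKO, and differed by -0.10 (SE 0.143). Dhx58 overlaps Dhx58os on the opposite strand. Exons of 8 members overlap a gene there, and those not named elsewhere are Usp18 (Gm44148), Ifi35 (Gm11626) and Gbp2 (Mir6381). On the same strand Ifitm2 overlaps Gm45717, Parp14 overlaps Gm49730, Rtp4 overlaps Gm45338 and Gbp7 overlaps Gm43802. Reads of these genes may be shared as well.

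Isg15 encodes a ubiquitin-like protein that is attached to other proteins after interferon, and Usp18 the protease that removes it. Isg15 stood at 2.06, 2.56 and 3.37 FPKM in the WT libraries, against 1.96, 2.94 and 2.31 FPKM in those labelled Tet2 cKO. The groups overlapped, and the interval of the difference was wide, -0.80 to 0.49. Usp18 stood at 0.330, 0.670 and 0.40 FPKM in the WT libraries, against 0.490, 0.220 and 0.40 FPKM in those labelled Tet2 cKO, from 11 to 30 counts a library. The 3 overlapping ISRE matches of Isg15, printed above, thus went with a level that only 22.3% of tested genes were below.

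The antiviral effectors held both the highest member and some of the lowest. Ifitm3, a membrane protein that blocks virus entry, stood at 16.3, 13.2 and 17.5 FPKM in the WT libraries, against 18.01, 12.8 and 13.4 FPKM in those labelled Tet2 cKO. Ifitm2, a close relative near it on chromosome 7, stood at 7.06, 8.07 and 8.60 FPKM in the WT libraries, against 8.49, 4.86 and 7.34 FPKM in those labelled Tet2 cKO. In both genes Tet2 cKO replicate 2 was the lowest of the 6 libraries. Bst2 (tetherin), which holds budding virus at the cell surface and was singled out after its values were seen, stood at 3.33, 2.34 and 3.18 FPKM in the WT libraries, against 3.17, 1.24 and 2.54 FPKM in those labelled Tet2 cKO. Without Tet2 cKO replicate 2 the log2 difference was -0.060 for Bst2 and -0.0081 for Ifitm2, against -0.36 (SE 0.328) and -0.21 (SE 0.218) with it. Without Tet2 cKO replicate 1 these were -0.65 and -0.38.

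The Ifit genes, which encode proteins that bind foreign RNA, lie in one cluster on chromosome 19, and none of them passed the test. Ifit2 stood at 5.63 ± 0.827 FPKM in the WT libraries, against 6.27 ± 0.186 FPKM in those labelled Tet2 cKO, and Ifit3 at 4.21 ± 0.381 and 4.86 ± 0.671 FPKM (SD, n = 3 each). The log2 differences were 0.15 (SE 0.115) and 0.20 (SE 0.154), and both groups overlapped. Ifit2 was at 0.27 without WT replicate 1 and 0.058 without WT replicate 3, and Ifit3 was at 0.30 without Tet2 cKO replicate 2 and 0.11 without Tet2 cKO replicate 1. Ifit1 was much lower, at 0.830 to 1.33 FPKM, and differed by 0.03, with a sign that changed when single libraries were left out. The near copy Ifit3b, a pathway gene outside the 34, differed by -0.28 (SE 0.185), at 3.24, 2.36 and 2.37 FPKM in the WT libraries, against 2.24, 2.18 and 2.21 FPKM in those labelled Tet2 cKO. The groups did not overlap in Ifit3b, at an unadjusted p of 0.167 by edgeR. Ifit1bl1, also outside the 34, differed by -0.14 (SE 0.281). Reads of Ifit3 and Ifit3b can be split wrongly in counting. Their summed level, taken after the values were seen, was 14.5, 12.1 and 11.4 CPM (counts scaled to the library total alone) in WT, against 13.99, 11.6 and 13.1 CPM in the other group, and those ranges overlap.

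Rsad2 (viperin), which makes an antiviral nucleotide, and Oasl2, of the oligoadenylate synthetase family, were under the filter, at means of 0.330 and 0.653 FPKM. Rsad2 had 22, 25 and 24 counts in the WT libraries, against 33, 13 and 32 in those labelled Tet2 cKO, so the Tet2 cKO libraries lay on both sides of WT. Oasl2 had 64 to 78 counts in the WT libraries, against 69 to 81 in those labelled Tet2 cKO. Rsad2 and Cmpk2 lie head to head on chromosome 12, and viperin acts on the product of the enzyme that Cmpk2 encodes. Cmpk2, named after its values were seen, stood at 5.39 to 5.92 FPKM in the 6 libraries, far above Rsad2 at 0.170 to 0.440 FPKM on the same scale per length.

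Of the other interferon-induced genes, Xaf1, an antagonist of the apoptosis inhibitor XIAP, had the smallest p of any member. Xaf1 (ENSMUSG00000040483, plus strand of chromosome 11, 72301629 to 72313733 on GRCm38) had 3.18, 2.92 and 3.65 FPKM in the WT libraries, against 2.45, 2.62 and 2.52 FPKM in those labelled Tet2 cKO. Each WT library lay above each library labelled Tet2 cKO. The mean was 3.25 ± 0.370 FPKM in the WT libraries, against 2.53 ± 0.0854 FPKM in those labelled Tet2 cKO (SD, n = 3 each), a log2 difference of -0.37 (95% interval -0.64 to -0.11), or 0.772 times the WT level. By edgeR the unadjusted p was 0.0111 and the adjusted p 0.9999, so Xaf1 did not pass, and without WT replicate 3 the difference was -0.27. Exons of Xaf1 overlapped no other gene in the annotation.

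Markers of cells that line the ventricle lay on the same side as Xaf1, though none passed the adjusted test. All 10 tested ependymal markers were lower under the Tet2 cKO label, their summed level being 64.0 to 80.8 FPKM in the WT libraries, against 48.2 to 57.2 FPKM in those labelled Tet2 cKO, and all 12 choroid plexus markers were lower, at 454 to 1411 FPKM and 174 to 831 FPKM. None of these markers was at 0. Ttr alone made up most of the choroid plexus sum, at 430 to 1347 FPKM in WT and 158 to 799 FPKM in the other group. Within WT, Xaf1 and the ependymal sum were highest in replicate 3, where the choroid plexus sum was lowest. WT replicates 1 and 2 stood in opposite order, at 3.18 and 2.92 FPKM for Xaf1 and 64.0 and 67.1 FPKM for the ependymal sum. Among the Tet2 cKO libraries both were highest in replicate 2, but Xaf1 was lowest in replicate 1 and the ependymal sum in replicate 3. The part of these cells in the Xaf1 value was not tested.

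Ifi27, a mitochondrial and nuclear-membrane protein gene strongly induced by type I interferon, was the second most abundant member. It stood at 12.9, 10.9 and 11.1 FPKM in the WT libraries, against 13.1, 8.37 and 9.49 FPKM in those labelled Tet2 cKO. In FPKM, Tet2 cKO replicate 1 and WT replicate 1 stood close together at the top and Tet2 cKO replicates 2 and 3 at the bottom, and the log2 difference was -0.19 (SE 0.160), -0.10 without WT replicate 1, and -0.39 or -0.056 when Tet2 cKO replicate 1 or 2 was dropped. Ifi35 and Rtp4 stood at 1.17 to 1.88 and 1.05 to 1.55 FPKM with overlapping groups. Parp14, an ADP-ribosyltransferase, had 71 to 85 counts in the WT libraries, against 70 to 89 in those labelled Tet2 cKO, and Ifi44 had 10 to 17 and 11 to 15. The difference could not be resolved for Ifi44 at this depth.

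The guanylate-binding proteins are GTPases induced mainly by interferon gamma that attack intracellular pathogens. Gbp3 stood at 1.84, 1.54 and 1.52 FPKM in the WT libraries, against 1.88, 1.83 and 1.64 FPKM in those labelled Tet2 cKO. Gbp2 stood at 1.36, 1.04 and 1.52 FPKM in the WT libraries, against 1.82, 1.31 and 1.13 FPKM in those labelled Tet2 cKO. Gbp7 stood at 0.970 to 1.23 FPKM. All 3 overlapped between groups, and the log2 differences were 0.12 (SE 0.163), 0.11 (SE 0.244) and -0.03 (SE 0.157). Since these neighbouring genes resemble each other and other family members, their separate levels are uncertain.

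Tet2 cKO replicate 2 was the low library for many members. On the normalized log2 CPM scale, on which the highest and lowest libraries are counted throughout, it held the lowest value in 8 of 25 tested members (32.0%), against 14.7% of all tested genes. These were Ifnar2, Stat2, Irf9, Irf2, Bst2, Ifitm2, Ifitm3 and Ifi27. The same library had the lowest summed level of several marker lists: 77.8 FPKM for 12 endothelial markers, 174 FPKM for choroid plexus, 74.8 FPKM for red blood cells and 595 FPKM for habenula neurons. Sums are weighted to abundant genes, such as Calb2 at 251 FPKM in the last. By mean log2(FPKM + 1), WT replicate 3 was instead the lowest for habenula neurons (4.54, against 4.74 in Tet2 cKO replicate 2) and red blood cells (2.97 against 2.98). Other lists differed: in Tet2 cKO replicate 2 the astrocyte sum, 451 FPKM, was the highest of the 6 libraries. Its microglial and macrophage sum, 137 FPKM, lay within the WT range. Ependymal and fibroblast sums were lowest in other libraries. Endothelial markers summed to 82.3 and 96.1 FPKM in Tet2 cKO replicates 3 and 1 and to 87.9 to 107 FPKM in WT. Gene by gene, Tet2 cKO replicate 2 was the lowest library for 4 of the 12 endothelial markers and Tet2 cKO replicate 3 for 5. The endothelial markers had a median log2 difference of -0.04, from -0.53 (Cldn5) to 0.28 (Vwf), with 10 of 12 below 0 and none at a level of 0. Cldn5, the endothelial claudin gene at the low end, stood at 16.9, 14.4 and 29.01 FPKM in the WT libraries, against 17.7, 10.2 and 14.1 FPKM in those labelled Tet2 cKO. The part of these cells, endothelium included, in the members' values was not tested. WT replicate 3 was the highest library in 7 members (28.0%) and the lowest in 6 (24%), close to its shares of all tested genes.

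**Figure D4:**
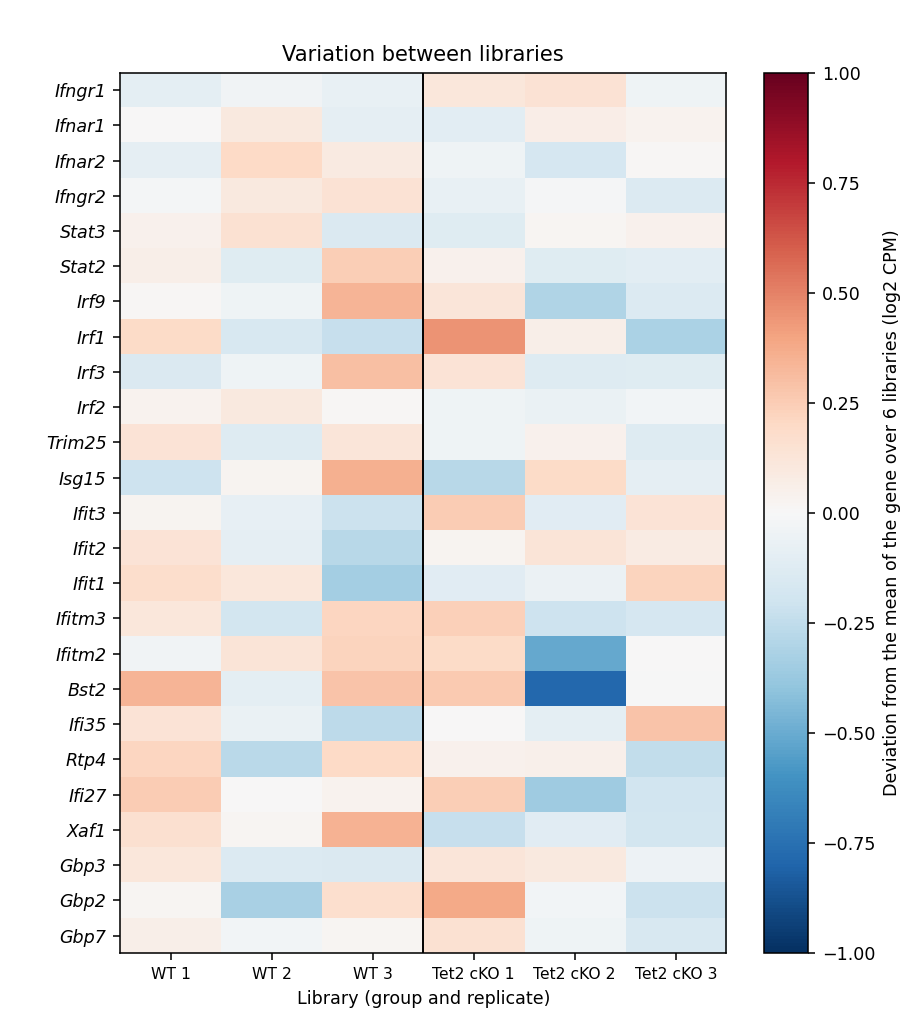
Deviation of each library from the mean over the 6 libraries, in log2 CPM, for the 25 tested members (red above, blue below; the vertical line separates WT from Tet2 cKO). The strongest blue cells are Bst2 and Ifitm2 in Tet2 cKO replicate 2, and Xaf1 is red in the 3 WT columns and blue in the other 3.

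Other markers of cells that can carry an interferon response were measured in the same libraries. Microglial and macrophage markers summed to 126 to 142 FPKM in the WT libraries, against 137 to 153 FPKM in those labelled Tet2 cKO, and 10 of the 12 tested had a log2 difference above 0. Of 17 markers of lymphocytes and blood leukocytes 16 averaged under 1 FPKM and 2 (Cd3d and Ncr1) had no count in any library; the list summed to 3.67 to 5.74 FPKM in WT and 3.47 to 4.30 FPKM in the other group. The exception, Siglech, is also made by microglia. It stood at 2.66 to 3.52 FPKM in WT and 2.87 to 3.05 FPKM in the other group, the largest part of the sum in each library. The 5 red blood cell genes, all above the filter, summed to 77.8 to 177 FPKM in WT and 74.8 to 111 FPKM in the other group. Astrocyte markers summed to 390 to 425 FPKM in the WT libraries, against 435 to 451 FPKM in those labelled Tet2 cKO, with 7 of 10 above 0. The part of these cells in the members' values was not tested.

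The ligands were at the detection limit. Over 21 interferon genes, 1 to 3 counts were found per library, 10 in all, and 15 of the genes had 0 counts in every library. Ifnb1 had 0 counts in each, which allows up to 3 counts per library, and Ifng had 2 counts in WT replicate 3 and 0 elsewhere. Counts this low allow no comparison between the groups, and a count of 0 does not show that a ligand was absent.

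The other genes of the pathway, 133 genes from a list separate from the 34, gave no call either. Of these, 44 were tested, 26 with a log2 difference above 0 and 18 below, with a median of 0.04. That median was -0.017 without Tet2 cKO replicate 1 and 0.016 without WT replicate 3. At an unadjusted p under 0.05 there were 2 (4.55%, against 2.57% of all tested genes). The groups did not overlap in 3, Ifitm1, Ticam1 and Ifit3b (6.82%, against 7.07% of all tested genes). The kinases Jak1, Jak2 and Tyk2 stood at 13.95 to 17.2, 9.60 to 11.1 and 2.43 to 3.28 FPKM, with log2 differences of 0.02 (SE 0.104), 0.05 (SE 0.0787) and 0.03 (SE 0.124). Irf8, a factor of microglia, was below the filter at 0.280 to 0.530 FPKM.

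Ifitm1 had the smallest p among these other genes. It stood at 4.54, 3.07 and 4.07 FPKM in the WT libraries, against 7.08, 4.90 and 6.29 FPKM in those labelled Tet2 cKO, and the groups did not overlap. The log2 difference was 0.63 (SE 0.206), or 1.55 times the WT level (unadjusted p = 0.0125, adjusted p = 0.9999 by edgeR). On chromosome 7 it lies between Ifitm2 and Ifitm3, whose log2 differences were -0.21 and -0.10. Without Tet2 cKO replicate 1 the unadjusted p of Ifitm1 was 0.0551. Whether Ifitm1 differs from its neighbours in response was not tested, and the reads of these related genes may be assigned imperfectly. Ticam1, the adaptor of the RNA receptor Tlr3, stood at 1.22, 1.41 and 1.17 FPKM in the WT libraries, against 0.690, 0.990 and 0.920 FPKM in those labelled Tet2 cKO. Those groups did not overlap either, and the log2 difference was -0.55 (SE 0.216, unadjusted p = 0.0291, adjusted p = 0.9999 by edgeR). The unadjusted p of Ticam1 was 0.0515 or 0.0890 when WT replicate 1 or 2 was dropped and 0.10 or 0.0517 when Tet2 cKO replicate 1 or 3 was.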

How the data were processed

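Total RNA of 3 WT and 3 Tet2 cKO habenula libraries was sequenced. The authors deposited 1 table of raw counts per gene. The FPKM values of the authors equal the count, divided by exonic size and library total, to within 0.0050 in every library. The deposited exonic gene sizes, in bases, were used for that check. Per the submitters' processing notes, the tools were HISAT2 2.0.1, SAMtools 0.1.19, cutadapt 1.9.1 and FastQC 0.10.1, with build mm10. The sources used here do not give the counting tool or its strand mode.

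The 14539 genes with a mean of 1 FPKM or more were tested on the counts with edgeR 4.0.16 (quasi-likelihood, TMM, two-sided, no covariate) in R 4.3.3, with Benjamini-Hochberg adjustment at 0.05. These genes held 99.1% to 99.2% of each library's counts. Intervals are 95%, and standard errors come from the F statistic. Library totals of 16089676 to 17917987 and 3 libraries a group set the precision. Counting limits cover counting error only. Alternatives were DESeq2 1.42.0, limma 3.58.1, other normalizations and filters, a replicate block and leaving out each library.

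The members and lists were chosen with earlier results of these data known. Values in every library are given for members with an unadjusted p under 0.05 or groups that do not overlap and for the 2 highest of each role. The table's coordinates equal those of GENCODE M21 for 1457 of 52083 shared gene identifiers, so positions are from GENCODE M21 (GRCm38), joined by identifier. Libraries were compared in pairs and none was a copy of another. The labels do not say that a replicate number marks a shared litter or batch, so the samples were not paired. The values of 1 pathway gene are not reported here.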

Additional observations from a re-analysis of the deposited data

How the results depend on the processing

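No member passed an adjusted p of 0.05 in any of 14 alternatives, and 17 of 25 tested members kept their sign in all of them. Over all genes, edgeR called 0, against 4 by DESeq2, 49 without a filter on low values, 2 with filterByExpr and 0 to 3 when each library was left out. Without a filter, and with filterByExpr, 14 of 34 members were above 0, which are the 8 already above 0, 5 of the 9 added and Ifnar1, whose sign changed; leaving out each library gave 8 to 9 above and 16 to 17 below. The count of members at an unadjusted p under 0.05 was 1 to 3 when each library was left out, against 228 to 865 of the 14539 tested genes. The count without overlap was 3 to 7, and no share over all tested genes was taken for those sets. The median of the tested members was then -0.10 to -0.034 and that of the other pathway genes -0.017 to 0.049. Sign changes arose mostly from leaving out a library. Ifnar1 was 0.0022 with RLE factors, 0.0023 with DESeq2, 0.0038 without a filter, 0.0015 with filterByExpr, 0.0053 and 0.0060 with limma at pseudocounts of 1 and 0.1, and -0.039 to 0.050 over left-out libraries. Over left-out libraries Stat3 ranged from -0.11 to 0.025, Irf1 from -0.071 to 0.36, Irf3 from -0.18 to 0.071, Isg15 from -0.33 to 0.063, Ifit1 from -0.13 to 0.15, Gbp2 from -0.10 to 0.25, Gbp7 from -0.13 to 0.047, Jak1 from -0.053 to 0.11 and Tyk2 from -0.086 to 0.13. Of members that kept their sign, Ifnar2 ranged from -0.22 to -0.070, Stat2 from -0.22 to -0.023, Trim25 from -0.18 to -0.048, Bst2 from -0.65 to -0.060, Ifitm2 from -0.38 to -0.0081, Ifitm3 from -0.26 to -0.0027, Ifi35 from 0.014 to 0.29, Rtp4 from -0.29 to -0.020 and Gbp3 from 0.073 to 0.21. Deviations of same-numbered libraries correlated over genes with r = -0.0719, 0.224 and -0.118, against -0.245 to 0.243 for libraries of different numbers. These ranges cover each other, so the check cannot decide whether the numbers pair the samples. With a replicate block edgeR called 0 genes, 1 member had an unadjusted p under 0.05 and the members' median was -0.095. Ticam1 exceeded an unadjusted p of 0.05 in some alternatives (up to 0.10), as did Ifitm1 (up to 0.0551), while Xaf1 stayed between 0.00646 and 0.0418. The causes were not tested. The 9 members under the filter had standard errors of 0.187 to 0.461 in the fit without a filter. Those of the 25 tested members in the main fit were 0.0850 to 0.328, so the ranges overlap.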
